A study of Rattus norvegicus with 44 samples.

Results

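The genes of this report carry the cyclic GMP (cGMP) signal of nitric oxide (NO) and of the natriuretic peptides. The set was named by symbol and holds Nos3, Npr1, Npr3, Pde5a, Pde2a, Pde1a, Pde3b, Prkg1, Vasp and Mrvi1. Of these 10 genes, 9 had a row among the 32883 entries of the expression table, and Prkg1, the cGMP-dependent protein kinase of smooth muscle, was not analysed here. All 9 were tested among 13482 genes. The samples were kidneys of male obese ZSF1 rats (ZSF-1OB), a cross of Zucker diabetic fatty and spontaneously hypertensive heart failure strains that carries 2 mutant copies of the leptin receptor gene and develops obesity, diabetes and progressive kidney disease. Every animal carried a telemetry device and took drug or vehicle in the feed from 22 weeks of age for 6 months. There were 11 animals on vehicle (Vehicle), 9 on Enalapril at 3 mg/kg/day, 12 on Compound 1, whose dose of 1 mg/kg/day was raised to 3 mg/kg/day, and 12 on Enalapril at 3 mg/kg/day plus 1 mg/kg/day of Compound 1 (the combination). Enalapril inhibits the angiotensin converting enzyme, and Compound 1 stimulates soluble guanylate cyclase (sGC), the NO receptor. No lean or healthy animals were among these samples, so every group is diseased. The dose of Compound 1 differed between the groups that received it. In the combination vs Compound 1, and in the interaction of the 2 drugs, that dose difference and the drugs cannot be told apart.

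NO made by endothelial nitric oxide synthase diffuses into neighboring cells and switches on sGC, which makes cGMP. Atrial and B-type natriuretic peptides make cGMP by a separate route, through a receptor on the cell surface that is itself a guanylyl cyclase. cGMP then activates protein kinase G, which relaxes vascular smooth muscle, and phosphodiesterases end the signal by hydrolyzing cGMP. In the kidney this pathway helps to set vascular tone, renin release and sodium excretion. An sGC stimulator acts on the enzyme, so the RNA of the downstream genes shows only whether the tissue adjusted their expression, not how much cGMP was made.

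Each library came from a different animal, and was deposited as FPKM, a read density per length of transcript and per depth of library, so levels of different genes can be set side by side. FPKM carry no read totals, and the absolute depth is unknown. The relative depth of the libraries ran from 0.622 to 1.44 times the median library. Tubule markers were present in all 44 libraries, with Umod of the thick ascending limb at 575 FPKM or more and Slc34a1 of the proximal tubule at 477 or more. A gene was called changed when its adjusted p in limma (Benjamini-Hochberg over all tested genes) was under 0.05 and its fold change was above 1.5 or under 0.66. With these rules 4.53% of all tested genes were called with Enalapril vs Vehicle, 0.2% with Compound 1 and 7.38% with the combination. The median log2 difference of all tested genes was -0.15, -0.07 and -0.18 in the same order, so most genes lay slightly lower in the treated libraries. The share of FPKM from 13 mitochondrial genes was 27.5 ± 5.38% in Vehicle (SD), 32.8 ± 5.90% in Enalapril, 30.2 ± 3.96% in Compound 1 and 32.1 ± 4.84% in combination libraries. Without mitochondrial transcripts the medians were -0.041, -0.017 and -0.087. Every difference below is on the scale of log2(FPKM + 0.1), and those that depend on this general shift are also given after median-of-ratios scaling, which is meant to remove it.

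The levels covered a wide range. Vasp was the most abundant of the 9 genes at 40.3 ± 9.31 FPKM (SD over 44 animals), and stood above every other gene of the set in all 44 animals. Pde2a followed at 11.6 ± 1.33 FPKM, Npr1 at 10.3 ± 1.61 and Pde1a at 7.87 ± 1.17. Pde2a exceeded Npr1 in 38 animals, and Npr1 exceeded Pde1a in 38 animals, so the order of these neighbors did not hold in every kidney. A clear gap lay between Pde1a and the next gene, since Pde1a exceeded Nos3 in all 44 animals. Nos3 (3.49 ± 0.733 FPKM), Mrvi1 (3.22 ± 0.578) and Pde3b (3.01 ± 0.502) overlapped widely, with Mrvi1 above Pde3b in 22 of 44 animals. Npr3 stood at 2.34 ± 0.597 FPKM. Pde5a was lowest at 1.53 ± 0.315 FPKM, and fell under 1 FPKM in 2 animals.

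**Figure D1:**
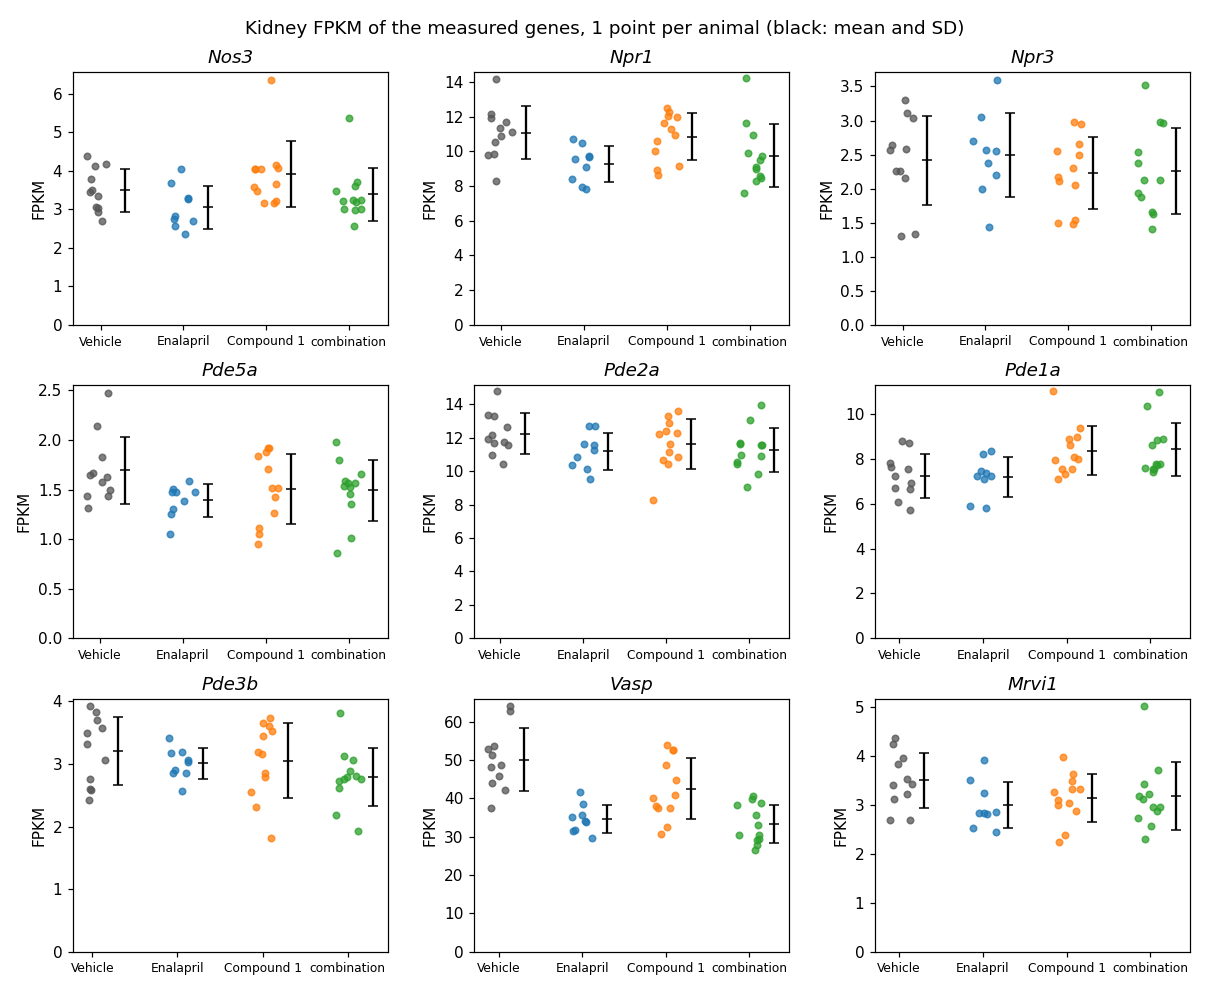
FPKM (y axis, from 0) of the 9 measured genes in each of the 44 kidneys, by treatment group on the x axis, with 1 point per animal and the mean and SD in black. Vasp in Enalapril and combination kidneys lay mostly under the lowest Vehicle value of 37.4 FPKM, whereas the points of the other 8 genes overlapped widely between groups.

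None of the 9 genes was called changed with Enalapril, Compound 1 or the combination vs Vehicle. By limma at an unadjusted p under 0.05 there were 3, 2 and 3 of the 9 in these comparisons. Of all 13482 tested genes, 5772, 1793 and 7205 were under it in the same order. Over the 9 genes the log2 differences had medians of -0.19 (Enalapril), -0.08 (Compound 1) and -0.15 (combination), beside the medians of -0.15, -0.07 and -0.18 over all tested genes. The widest differences were those of Vasp in the negative direction and Pde1a in the positive direction with the combination. The 95% interval lay within the fold thresholds for 8 of the 9 genes with Enalapril, for 9 of 9 with Compound 1 and for 8 of 9 with the combination, with Vasp as the exception in the first and the last. With the adjusted p alone, 2 of 9 genes were lower with Enalapril (Vasp and Npr1), where 26.6% of all tested genes were. With the combination 1 of 9 was lower (Vasp), where 39.3% of all tested genes were, and 1 of 9 was higher (Pde1a), where 6.38% of all tested genes were. With Compound 1 alone no gene of the set passed the adjusted p, where 0.475% of all tested genes did. The direction of the background depends on the scaling. As deposited, 66 genes were called higher and 545 lower with Enalapril and 134 and 861 with the combination, whereas after median-of-ratios scaling the counts were 205 and 164, and 337 and 312.

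**Figure D2:**
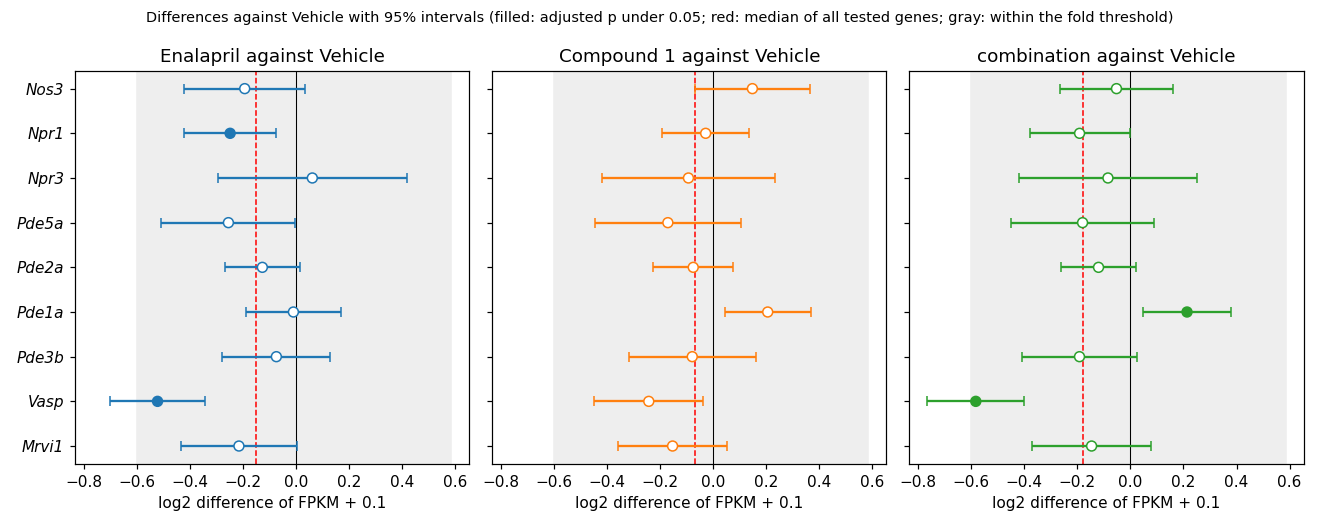
Log2 difference of FPKM + 0.1 vs Vehicle (x axis) with its 95% interval for each gene (y axis), in 1 panel per treatment. Filled points have an adjusted p under 0.05, the red line is the median of all tested genes and the gray band lies within the fold thresholds. Vasp at -0.52 with Enalapril and -0.58 with the combination stood nearest to the edge of the band.

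The promoters of Vasp, Npr1 and Pde1a are shown because these 3 genes passed the adjusted p vs Vehicle and the measured quantity is their RNA. The sequences are the 250 bases before the transcript start in RefSeq (build GRCr8, which is not the rn6 build of the expression values), written 5′ to 3′ on the strand of the gene. Capitals mark letters that match any of 4 short motifs on either strand. The first is the GC box, spelled GGGCGG, and the second is the CCAAT box, named by its letters. The third is the core of the cAMP response element, spelled TGACG. The last is the TATA box, spelled TATAAA. The 3 lie at chr1:88052956-88053205 (minus strand) for Vasp, chr3:85431779-85432028 (minus strand) for Pde1a and chr2:178247089-178247338 (minus strand) for Npr1.
Vasp: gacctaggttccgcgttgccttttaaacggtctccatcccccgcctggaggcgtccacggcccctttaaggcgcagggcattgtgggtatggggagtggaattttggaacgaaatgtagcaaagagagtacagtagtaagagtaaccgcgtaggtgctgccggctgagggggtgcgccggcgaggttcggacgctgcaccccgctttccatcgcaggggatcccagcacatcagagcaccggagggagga
Pde1a: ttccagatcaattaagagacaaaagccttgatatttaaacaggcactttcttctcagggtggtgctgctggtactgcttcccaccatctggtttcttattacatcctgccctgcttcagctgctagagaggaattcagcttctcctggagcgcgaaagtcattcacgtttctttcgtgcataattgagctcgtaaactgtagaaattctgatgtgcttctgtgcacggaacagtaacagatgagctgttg
Npr1: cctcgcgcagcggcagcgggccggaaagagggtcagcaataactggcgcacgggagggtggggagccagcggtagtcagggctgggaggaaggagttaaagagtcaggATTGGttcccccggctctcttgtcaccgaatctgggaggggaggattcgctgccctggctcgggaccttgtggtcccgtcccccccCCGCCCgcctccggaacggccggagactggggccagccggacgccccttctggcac
Npr1 had 1 GC box and 1 CCAAT box, which did not overlap, and Vasp and Pde1a had no match to any of the 4 motifs in this window. Of 33469 rat promoter windows of the same length, 30.5% held a GC box, 34% a CCAAT box, 18.2% the cAMP response element core and 12.9% a TATA box. The G and C content was 60.4% for Vasp, 44.8% for Pde1a and 68.8% for Npr1. A match is a description of letters and not a site in use.

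Vasp encodes vasodilator-stimulated phosphoprotein, an actin-binding protein and a classic substrate of protein kinase G. In Vehicle kidneys Vasp ran from 37.4 to 64.1 FPKM with a median of 48.6. In the Enalapril group it ran from 29.6 to 41.5 FPKM with a median of 34.1. All 9 Enalapril animals lay below the Vehicle median, and 7 of them lay below the lowest Vehicle animal. Combination kidneys ran from 26.6 to 40.5 FPKM with a median of 31.8. There all 12 animals lay below the Vehicle median and 8 below the lowest Vehicle animal. Compound 1 kidneys spread from 30.7 to 53.8 FPKM around a median of 40.5, with 8 of 12 below the Vehicle median and 2 below the lowest Vehicle animal. The means were 50.1 ± 8.14 FPKM (SD, n = 11) in Vehicle, 34.6 ± 3.68 (n = 9) with Enalapril, 42.5 ± 7.95 (n = 12) with Compound 1 and 33.3 ± 5.02 (n = 12) with the combination.

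The limma log2 difference of Vasp was -0.52 (SE 0.09, adjusted p = 0.00034) with Enalapril, which is 0.696 times the Vehicle level. With the combination it was -0.58 (SE 0.09, adjusted p = 4.09e-05), or 0.668 times the Vehicle level, just short of the fold threshold of 0.66. Leaving out 1 of 7 animals (Vehicle 1008, 1010 or 1012, or combination 4002, 4007, 4009 or 4011) moved it past that threshold, and the difference ran from -0.62 to -0.55 over all fits with 1 animal left out. With Compound 1 alone the difference was -0.24 (95% interval -0.45 to -0.04, adjusted p = 0.305). After median-of-ratios scaling Vasp remained lower, by -0.37 with Enalapril (adjusted p = 0.0027) and -0.41 with the combination (adjusted p = 0.000625). Vasp passed the adjusted p in these 2 comparisons under every alternative that was run.

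Vasp was also lower with the combination than with Compound 1 by a log2 difference of -0.34 (SE 0.09, adjusted p = 0.00645) and lower with Enalapril than with Compound 1 by -0.28 (SE 0.10, adjusted p = 0.0459). The first held at -0.24 after median-of-ratios scaling (adjusted p = 0.0233), whereas the second did not (-0.20, adjusted p = 0.105). The second also missed the threshold without any 1 of 14 animals, Enalapril 2001, 2005, 2007, 2008, 2009, 2011 or 2012 or Compound 1 3001, 3007, 3008, 3009, 3012, 3103 or 3105 (adjusted p up to 0.0988). With the inner medulla markers as a covariate neither passed (-0.18, adjusted p = 0.174, and -0.047, adjusted p = 0.943). Combination and Enalapril did not differ detectably (-0.06, 95% interval -0.26 to 0.13, adjusted p = 0.867). The interaction of Enalapril and Compound 1 on Vasp was 0.18 (95% interval -0.09 to 0.45, adjusted p = 0.986).

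In bulk tissue, fewer cells of a type and less RNA per cell cannot be told apart, and several cell type markers moved in the comparisons where Vasp was lower. With Enalapril 4 of 6 fibroblast markers, 1 of 6 macrophage markers and 2 of 5 T and B cell markers were called lower, and with the combination 4 of 6, 3 of 6 and 4 of 5 were. Of all 13482 tested genes, 545 were called lower with Enalapril and 861 with the combination. With Compound 1 none of these markers was called. With the adjusted p alone, 5 of 7 proximal tubule markers were higher with Enalapril and 5 of 7 with the combination, and 5 of 10 smooth muscle markers were lower with Enalapril and 2 of 10 with the combination. By that rule 481 and 860 of all 13482 tested genes were higher with Enalapril and the combination. The lower genes made up 26.6% and 39.3% of all tested genes, so the 2 of 10 with the combination lay under that share. In Enalapril vs Compound 1, 7 of 10 smooth muscle markers were lower with the adjusted p alone, where 10.9% of all tested genes were. Of these markers 1 was past the fold threshold as well. As deposited, the smooth muscle markers summed to between 311 and 470 FPKM in Vehicle, 257 and 346 in Enalapril, 331 and 582 in Compound 1 and 293 and 420 in combination kidneys. After median-of-ratios scaling their median sums were 370, 316, 407 and 369 FPKM in the same order, so Vehicle and combination kidneys then lay close together. For the proximal tubule markers the sums as deposited were 1242 to 2172, 2017 to 2553, 980 to 2279 and 1902 to 2642 FPKM. The summed FPKM of the macrophage markers lay between 706 and 1686 FPKM in Vehicle kidneys, between 473 and 1086 in Enalapril kidneys, between 605 and 1480 in Compound 1 kidneys and between 560 and 1023 in combination kidneys. The fibroblast markers summed to between 241 and 461 FPKM in Vehicle, 150 and 308 in Enalapril, 199 and 432 in Compound 1 and 170 and 296 in combination kidneys. The T and B cell markers summed to between 17.1 and 31.5 FPKM in Vehicle, 12.3 and 21.2 with Enalapril, 14.0 and 31.7 with Compound 1 and 10.9 and 24.1 with the combination. After median-of-ratios scaling the median sums of the macrophage, fibroblast and T and B cell markers stayed lower in both Enalapril-treated groups than in Vehicle. None of the measured markers in these lists was at 0 in every animal. Across the 44 animals, after median-of-ratios scaling and removal of the group means, Vasp followed the mean of the T and B cell markers with r = 0.761, the smooth muscle markers with r = 0.740 and the macrophage markers with r = 0.561. For the inner medulla markers r was 0.495, and for the fibroblast markers it was 0.330. Vasp ran opposite to the proximal tubule markers (r = -0.598) and the thick ascending limb and distal tubule markers (r = -0.686). Podocyte markers (r = -0.579) and endothelium markers (r = -0.337) also ran opposite to it. These are descriptions across 44 libraries that share depth and tissue composition, and the part of these cells in the Vasp difference was not tested. With the mean of the inner medulla markers as a covariate the Vasp difference was -0.39 with Enalapril (adjusted p = 0.0213), -0.47 with the combination (adjusted p = 0.00048) and -0.30 with Compound 1 (adjusted p = 0.0209).

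Pde1a encodes a calcium- and calmodulin-activated phosphodiesterase that hydrolyzes cGMP in preference to cAMP and is well known from vascular smooth muscle. Its mean was 7.26 ± 0.978 FPKM (SD, n = 11) in Vehicle and 7.20 ± 0.875 (n = 9) in Enalapril kidneys, against 8.38 ± 1.10 (n = 12) in Compound 1 and 8.43 ± 1.18 (n = 12) in combination kidneys. In Vehicle kidneys it ran from 5.73 to 8.80 FPKM with a median of 7.23, and Enalapril kidneys ran from 5.82 to 8.35 FPKM with a median of 7.24. Compound 1 kidneys ran from 7.11 to 11.03 FPKM with a median of 8.05, and 11 of 12 lay above the Vehicle median. Combination kidneys ran from 7.42 to 10.99 FPKM with a median of 7.77, and 12 of 12 lay above the Vehicle median. In each of these 2 groups 4 animals exceeded the highest Vehicle animal, so the groups still overlapped.

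The limma log2 difference of Pde1a vs Vehicle was 0.21 with the combination (SE 0.08, adjusted p = 0.0345) and also 0.21 with Compound 1 alone (SE 0.08, adjusted p = 0.279). With Enalapril it was -0.01 (95% interval -0.19 to 0.17). Pooled over the animals without and with Enalapril, Pde1a was higher with Compound 1 than without it by a log2 difference of 0.21 (95% interval 0.10 to 0.33, adjusted p = 0.0256), which is 1.16-fold and far under the fold threshold. In that pooled comparison no gene of the set was called, where 0.171% of all tested genes were, and 1 of 9 was higher with the adjusted p alone, where 0.808% of all tested genes were. By unadjusted p, limma had 2 of 9 under 0.05 there, Pde1a and Vasp, where 2634 of all 13482 tested genes were. The interaction for Pde1a was 0.02 (95% interval -0.21 to 0.25), and its difference between the combination and Compound 1 was 0.01 (95% interval -0.15 to 0.16). Median-of-ratios scaling gave 0.38 with the combination (adjusted p = 0.000793), 0.28 with Compound 1 (adjusted p = 0.133) and 0.26 for the pooled comparison (adjusted p = 0.0046). The Enalapril difference turned positive on that scale without passing the adjusted p. The medians of Pde1a were then 6.54 FPKM in Vehicle, 7.68 in Enalapril, 7.97 in Compound 1 and 8.46 in combination kidneys. The likeness of Enalapril to Vehicle kidneys therefore held only for the values as deposited. The pooled difference was 0.17 (adjusted p = 0.148) without the 6 animals whose columns stand apart at the end of the table (2005, 2011, 2012, 3103, 3011 and 4005), and it missed the threshold without Enalapril animal 2010 (adjusted p = 0.0503). The combination difference missed it without any 1 of Vehicle 1006, 1007, 1009, 1011 or 1012 or combination 4001, 4004 or 4012, with adjusted p up to 0.067, and with the inner medulla covariate (0.20, adjusted p = 0.0945).

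Distal tubule and thick ascending limb markers differed in the same direction as Pde1a. Over 5 tested markers the median log2 difference vs Vehicle was 0.23 with Compound 1, 0.24 with the combination and 0.04 with Enalapril, and it was 0.17 in the pooled comparison. None of these markers was called. With the adjusted p alone 2 of 5 were higher with the combination and 1 of 5 in the pooled comparison, where 6.38% and 0.808% of all tested genes were. The summed level of these 5 markers and Pvalb, which was under the filter, lay between 938 and 1949 FPKM in Vehicle, 1086 and 1788 in Enalapril, 1135 and 1930 in Compound 1 and 923 and 1892 in combination kidneys. Across the 44 animals Pde1a followed the mean of the 5 tested markers with r = 0.441 (Spearman rho = 0.434), on the scale used for Vasp. For podocyte markers r was 0.238, for proximal tubule markers 0.175, for endothelium markers 0.078 and for inner medulla markers -0.026. Smooth muscle (r = -0.161), fibroblast (r = -0.248), macrophage (r = -0.262) and T and B cell markers (r = -0.340) ran opposite to it. The part of any of these cell types in the Pde1a difference was not tested.

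Neither natriuretic peptide receptor was called changed. Npr1 encodes the receptor guanylyl cyclase for atrial and B-type natriuretic peptides. It spanned 8.30 to 14.2 FPKM in Vehicle kidneys (median 11.1), 7.84 to 10.7 after Enalapril (median 9.54), 8.65 to 12.5 after Compound 1 (median 11.1) and 7.58 to 14.2 after the combination (median 9.28). All 9 Enalapril animals lay below the Vehicle median, and 2 lay below the lowest Vehicle animal. The log2 difference with Enalapril was -0.25 (SE 0.08, adjusted p = 0.0281), and it was -0.10 (adjusted p = 0.404) after median-of-ratios scaling. It also missed the threshold without any 1 of Enalapril animals 2001, 2005 or 2008 (adjusted p up to 0.0604), and without Vehicle 1003 and 1004 together (adjusted p = 0.0631). With the combination the difference was -0.19 (adjusted p = 0.0881), which passed the adjusted p without Vehicle 1006 or without combination 4002 (adjusted p down to 0.0139). With Compound 1 it was -0.03 (95% interval -0.19 to 0.14).

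Npr3 encodes the clearance receptor, which removes natriuretic peptides without making cGMP. It was the most variable gene of the set, with an SD of 25.5% of its mean over all animals. It lay between 1.301 and 3.30 FPKM in Vehicle kidneys, between 1.43 and 3.60 in Enalapril kidneys, between 1.49 and 2.97 in Compound 1 kidneys and between 1.41 and 3.53 in combination kidneys, and the medians of 2.57, 2.55, 2.24 and 2.13 FPKM lay close together. Its differences vs Vehicle were 0.06, -0.09 and -0.08 for Enalapril, Compound 1 and the combination (0.21, -0.023 and 0.081 after median-of-ratios scaling), with 95% intervals reaching from -0.42 to 0.42, so smaller changes within these intervals could not be detected. The ratio of Npr1 to Npr3 within a library does not depend on the scaling. Its mean was 4.99 ± 2.03 (SD, n = 11) for Vehicle animals, 3.90 ± 0.948 (n = 9) for Enalapril, 5.13 ± 1.48 (n = 12) for Compound 1 and 4.58 ± 1.41 (n = 12) for combination animals. These ranges overlapped widely, and 1 Vehicle animal reached 10.6.

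Nos3 encodes endothelial NO synthase, the source of NO in vessel walls. It spanned 2.70 to 4.39 FPKM in Vehicle kidneys (median 3.46), 2.35 to 4.06 after Enalapril (median 2.83), 3.15 to 6.37 after Compound 1 (median 3.84) and 2.57 to 5.38 after the combination (median 3.23). The highest Compound 1 and combination values came from single animals, 3105 and 4002. None of the treatments separated Nos3 from Vehicle, with log2 differences of -0.19 with Enalapril (adjusted p = 0.182), 0.15 with Compound 1 (adjusted p = 0.537) and -0.05 with the combination (adjusted p = 0.693), and the last turned to 0.12 after median-of-ratios scaling. Set against each other, Enalapril was lower than Compound 1 by -0.34 (SE 0.11, adjusted p = 0.0343). That difference was -0.26 after median-of-ratios scaling (adjusted p = 0.0821) and -0.20 (adjusted p = 0.291) without animals 2103 and 3102 to 3105, whose numbers differ in form from the rest. It also missed the threshold without any 1 of Enalapril 2005, 2007, 2011 or 2103 or Compound 1 animals 3007, 3008, 3103 or 3105 (adjusted p up to 0.0863). Relative to the geometric mean of 9 endothelial markers in the same library, Nos3 stood at 0.168 ± 0.0282 for Vehicle animals, 0.155 ± 0.0287 for Enalapril, 0.181 ± 0.0385 for Compound 1 and 0.157 ± 0.0233 for combination animals.

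Pde5a, Pde2a and Pde3b did not pass the adjusted p vs Vehicle. Pde5a, the cGMP-specific enzyme that sildenafil inhibits, lay between 1.32 and 2.47 FPKM in Vehicle kidneys (median 1.63), between 1.05 and 1.59 in Enalapril kidneys (median 1.47), between 0.950 and 1.92 in Compound 1 kidneys (median 1.52) and between 0.857 and 1.98 in combination kidneys (median 1.55). All 9 Enalapril animals were below the Vehicle median. Its log2 difference was -0.26 with Enalapril (95% interval -0.51 to -0.003, adjusted p = 0.113), -0.17 with Compound 1 and -0.18 with the combination. After median-of-ratios scaling they stood at -0.11, -0.10 and -0.018. The ratio of Pde1a to Pde5a within a library, chosen after the values were seen, averaged 4.39 ± 0.830 for Vehicle animals, 5.22 ± 0.704 for Enalapril, 5.83 ± 1.52 for Compound 1 and 5.88 ± 1.45 for combination animals.

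Pde2a, which cGMP itself stimulates and which degrades both cyclic nucleotides, was the steadiest gene of the set, with an SD of 11.4% of its mean. It spanned 10.4 to 14.8 FPKM in Vehicle kidneys (median 11.9), 9.52 to 12.7 after Enalapril (median 11.3), 8.27 to 13.6 after Compound 1 (median 11.9) and 9.08 to 14.0 after the combination (median 11.3). Its differences vs Vehicle were -0.13, -0.08 and -0.12 with Enalapril, Compound 1 and the combination, and their 95% intervals went no lower than -0.27. After median-of-ratios scaling these became 0.025, -0.0027 and 0.052. Pde3b, which cGMP inhibits and which degrades mainly cAMP, lay between 2.42 and 3.93 FPKM in Vehicle kidneys (median 3.31), between 2.57 and 3.42 in Enalapril kidneys (median 3.03), between 1.81 and 3.73 in Compound 1 kidneys (median 3.17) and between 1.93 and 3.82 in combination kidneys (median 2.78). With the combination 11 of 12 animals lay below the Vehicle median, at a log2 difference of -0.19 (95% interval -0.41 to 0.03, adjusted p = 0.137) that was -0.024 after median-of-ratios scaling.

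Mrvi1 (Irag1 in current RefSeq naming) encodes the inositol trisphosphate receptor-associated substrate through which protein kinase G lowers calcium release in smooth muscle. It spanned 2.70 to 4.38 FPKM in Vehicle kidneys (median 3.44), 2.45 to 3.93 after Enalapril (median 2.85), 2.26 to 3.99 after Compound 1 (median 3.18) and 2.30 to 5.04 after the combination (median 3.05). The log2 differences were -0.22 with Enalapril (adjusted p = 0.123), -0.15 with Compound 1 (adjusted p = 0.495) and -0.15 with the combination (adjusted p = 0.274). After median-of-ratios scaling they were -0.067, -0.082 and 0.022, so the combination value changed sign. Mrvi1 and Vasp are both protein kinase G substrates, and their values are given side by side, since the difference between the 2 genes was not tested.

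**Figure D3:**
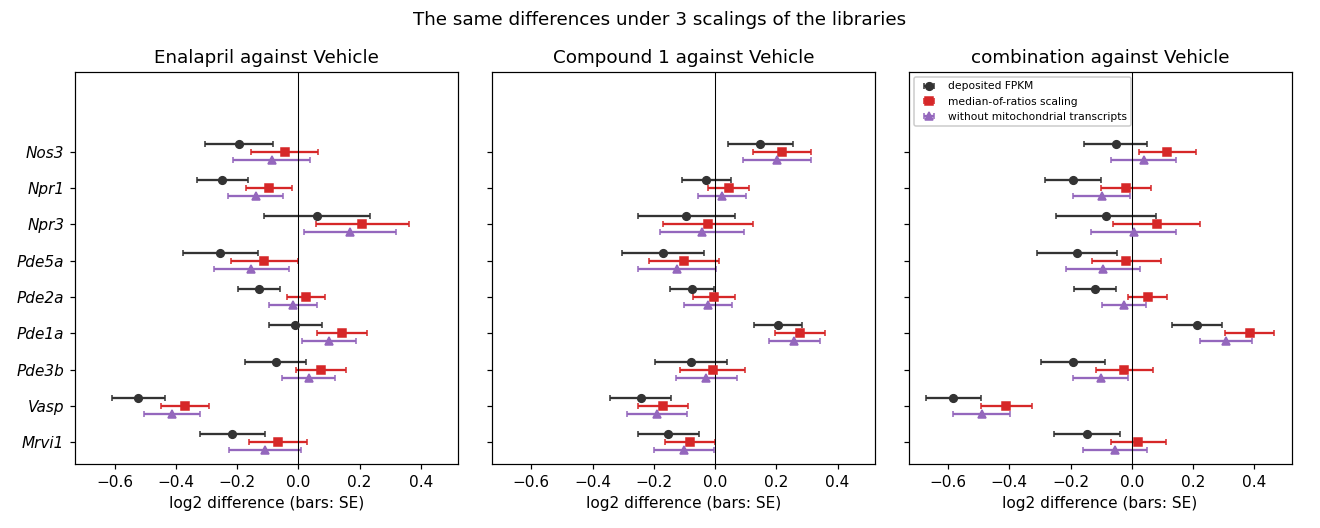
Log2 difference vs Vehicle (x axis, bars are the SE) of the 9 genes (y axis) with the FPKM as deposited, after median-of-ratios scaling and after removal of mitochondrial transcripts, in 1 panel per treatment. Vasp stayed on the negative side and Pde1a stayed on the positive side with Compound 1 and the combination, while several genes near 0 crossed it.

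On the deposited scale a few animals carried the extremes of several genes at once. Combination animal 4002 held the highest value of its group for Nos3, Npr1, Pde5a, Pde2a and Mrvi1. Compound 1 animal 3105 held the highest value of its group for Nos3, Npr1, Pde2a and Mrvi1 and the lowest for Pde1a and Pde3b. In the Enalapril group animal 2005 was lowest for Nos3, Npr3, Pde5a, Pde2a and Pde1a. Some of these extremes moved with the scaling. After median-of-ratios scaling 4002 was highest for Nos3 and Mrvi1, with 4007 highest for Npr1, Pde5a and Pde2a, and 2005 was lowest for Npr3, Pde5a and Pde2a. Animal 3105 kept all 6 of its extremes. After median-of-ratios scaling and removal of group means, 21 of the 36 pairs of genes had a positive r over the 44 animals, between -0.498 (Nos3 with Pde3b) and 0.587 (Npr1 with Mrvi1). Npr1 with Pde2a had r = 0.578 and Nos3 with Pde2a had r = 0.569.

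For each gene the 3 tested genes with the most similar residuals were listed, as a description with no test. Vasp had the closest companions, Fxyd5 (r = 0.904, Spearman rho = 0.869), Krt19 (r = 0.895, rho = 0.858) and Lgals3 (r = 0.881, rho = 0.858). Mrvi1 was most like Acin1 (r = 0.824), Dcp1a (r = 0.817) and Usp40 (r = 0.802). Nos3 was most like Hip1r (r = 0.776), Telo2 (r = 0.769) and Pex6 (r = 0.768), and Npr1 was most like Taf8 (r = 0.752), Plekhm2 (r = 0.742) and Mprip (r = 0.703). Npr3 was most like Mfsd14b (r = 0.729), Fbxl17 (r = 0.692) and Nrp1 (r = 0.668). For Pde2a the list held Ube3b (r = 0.728), Mprip (r = 0.717) and Adck5 (r = 0.713), and for Pde3b it held Clec14a (r = 0.696), Galnt1 (r = 0.688) and Adam9 (r = 0.685). For Clec14a the Spearman rho with Pde3b was 0.355, well under its r. Pde5a and Pde1a had no companion above r = 0.6, with Cand2 at 0.596 and Kif16b at 0.577 as the highest.

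The comparisons between treatments gave no call for any gene of the set. In the combination vs Enalapril, 0 of 9 were called, where 0.00742% of all tested genes were, and 0 of 9 passed the adjusted p alone, where 0.0519% of all tested genes did. Pde1a was the 1 gene under 0.05 by unadjusted p in limma there, at 0.22 (95% interval 0.06 to 0.39, adjusted p = 0.318). By that measure 1401 of all 13482 tested genes were under 0.05. In the combination vs Compound 1, 0 of 9 were called, where 2.33% of all tested genes were, and 1 of 9 (Vasp) was lower with the adjusted p alone, where 17.4% of all tested genes were. In Enalapril vs Compound 1, 0 of 9 were called, where 2.22% of all tested genes were, and 2 of 9 (Vasp and Nos3) were lower with the adjusted p alone, where 10.9% of all tested genes were. At an unadjusted p under 0.05 limma had 1 of 9 and 4 of 9 in these 2 comparisons. Of all 13482 tested genes, 4895 and 3706 were under it. Single animals decided further values there. Without combination animal 4002, Npr1 (-0.21, adjusted p = 0.0316) and Nos3 (-0.26, adjusted p = 0.0374) passed the adjusted p in the combination vs Compound 1. In Enalapril vs Compound 1, Npr1 passed without 3011 (-0.25, adjusted p = 0.0463) and Pde1a without 2103 (-0.24, adjusted p = 0.0448). The interaction called 0 of 9 genes and 0.00742% of all tested genes, by either rule. No gene of the set had an unadjusted p under 0.05 for the interaction, where 579 of all 13482 tested genes did. Its values ran from -0.05 for Npr3 to 0.25 for Pde5a, and 8 of 9 intervals lay within the fold thresholds.

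Other genes of the pathway were listed from general knowledge in 5 groups, with earlier results of these data known, and 44 of them were tested. With Enalapril 1 was called higher and 1 lower, with the combination 2 and 2, and with Compound 1 none, beside the 4.53%, 7.38% and 0.2% of all tested genes given above. Without the fold threshold 3 were higher and 12 lower with Enalapril, where 481 and 3590 of all 13482 tested genes were. With the combination 8 were higher and 16 lower, where 860 and 5293 of all tested genes were, and with Compound 1 none was. The shares of lower genes were thus close to the background. With Enalapril (3) and the combination (8), higher genes took a larger share of the 44 than of all tested genes. That excess was not tested. The median log2 difference of the 44 genes was -0.12, -0.09 and -0.03 with Enalapril, the combination and Compound 1. All 4 called genes stood in the group of guanylyl cyclases and natriuretic peptides, of which 9 of 15 were tested. None of the 13 tested NO synthesis genes, the 8 tested kinase targets, the 12 further phosphodiesterases and the 2 transporters was called vs Vehicle. No cGMP kinase was among the tested genes, since Prkg2 was under the filter and Prkg1 was not analysed. The group medians of Prkg2 ran from 0.246 FPKM (combination) to 0.363 FPKM (Vehicle). The 2 transporters were Abcc4 and Abcc5, and no Cnga channel gene was tested.

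Guca2b, which encodes uroguanylin, a peptide that activates a guanylyl cyclase of epithelial cells, fell in both Enalapril-treated groups. It lay between 19.1 and 71.5 FPKM in Vehicle kidneys (median 35.4), between 13.1 and 34.4 in Enalapril kidneys (median 17.8), between 15.3 and 86.5 in Compound 1 kidneys (median 39.1) and between 11.5 and 34.6 in combination kidneys (median 16.5). Its log2 difference was -0.97 (SE 0.18, adjusted p = 0.000804) with Enalapril and -1.05 (SE 0.19, adjusted p = 0.000194) with the combination, and it was also called lower in the combination vs Compound 1 (-1.01) and in Enalapril vs Compound 1 (-0.92). The last of these was lost with the inner medulla covariate (-0.40). In that comparison Guca2a, the gene of guanylin, fell too (-0.66), though not past the fold threshold after median-of-ratios scaling (-0.59), under the inner medulla covariate (-0.39), with weighted samples (-0.59) or without Compound 1 animal 3001 (-0.60). Gucy2c, a guanylyl cyclase gene of the same list, was under the filter, with group medians from 0 to 0.0116 FPKM and a highest value of 0.0778 FPKM.

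Mme, which encodes neprilysin, the peptidase that degrades natriuretic peptides, rose from 30.3 ± 11.1 FPKM in Vehicle to 50.9 ± 8.21 with the combination (log2 difference 0.84, SE 0.19, adjusted p = 0.00106). With Enalapril it was 42.6 ± 6.06 FPKM (0.59, SE 0.21, adjusted p = 0.0352). That call was lost without any 1 of Vehicle 1002, 1003, 1004 or 1006 or Enalapril 2001, 2005, 2008, 2009 or 2011 (0.43 to 0.59). The 7 proximal tubule markers had median log2 differences of 0.29 with Enalapril and 0.33 with the combination. With Compound 1 their median was -0.05, where Mme averaged 39.7 ± 9.45 FPKM. The part of proximal tubule cells in the Mme differences was not tested. Gucy1b2, a minor beta subunit of sGC, rose with the combination from 7.40 ± 1.52 to 11.3 ± 1.87 FPKM (0.62, SE 0.11, adjusted p = 0.000148) and was called higher than with Compound 1 (0.59). The first of these calls was lost without Vehicle 1003 or combination 4004 (0.55 and 0.58). The second was lost without any 1 of 12 animals, Compound 1 3001, 3006, 3008, 3009, 3010 or 3012 or combination 4001, 4002, 4003, 4004, 4010 or 4012 (lowest value 0.52). Gucy1a1, the main alpha subunit, fell with the combination from 15.0 ± 2.96 to 9.91 ± 2.31 FPKM (-0.60, SE 0.12, adjusted p = 0.0005). It stood at the fold threshold and was not past it after median-of-ratios scaling (-0.43) or without any 1 of Vehicle 1001, 1002, 1003 or 1007 or combination 4001, 4003, 4004, 4006, 4007, 4008 or 4010 (-0.59 to -0.56).

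**Figure D4:**
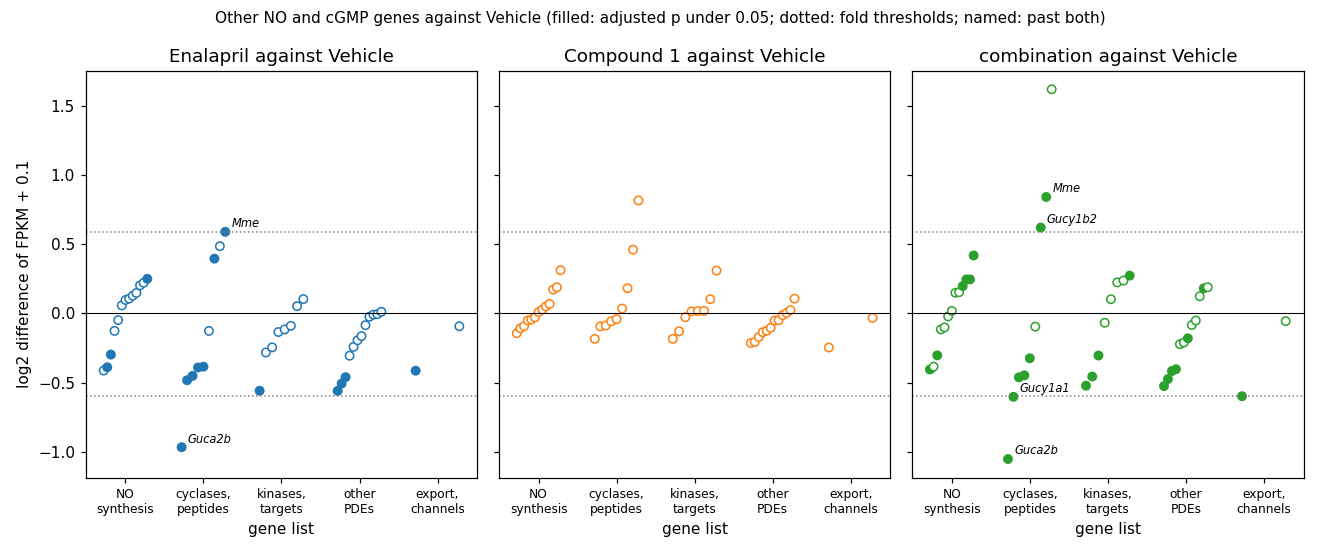
Log2 difference of FPKM + 0.1 vs Vehicle (y axis) for 44 further NO and cGMP genes in 5 lists (x axis), 1 panel per treatment. Filled points have an adjusted p under 0.05, dotted lines are the fold thresholds, and Guca2b, Mme, Gucy1b2 and Gucy1a1 are the genes named as past both.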

How the data were processed

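Kidney mRNA of 44 rats was sequenced as stranded libraries, 1 per animal. The authors deposited FPKM for 32883 entries, on build rn6 per the labels, and tested raw counts with DESeq2. No aligner or counter is named in the sources used here. The deposited FPKM are not counts, so limma 3.58.1 (R 4.3.3, variance trend on the mean level) was run on log2(FPKM + 0.1). Genes needed FPKM above 1 in at least 9 animals. Fits vs Vehicle held only those 2 groups, and the remaining comparisons held all 4 groups. The p-values rest on the spread between animals. Doses are those of the study's methods. Alternatives were pseudocounts of 1 and 0.01, no filter, FPKM above 5, median-of-ratios and quantile scaling, no fold threshold, sample weights, an inner medulla covariate, removal of mitochondrial transcripts, wider or narrower sets of animals and the omission of single animals. The named genes were all members, up to 4 called genes of largest change per comparison from the pathway lists and the 3 genes most like each member. The members and lists were chosen with earlier results of these data known. No member was under the filter, so no permutation test was run, and the ratios with Prkg1 were not made. Labels do not say that animals were housed or processed in batches. Columns with no values, 2 in all, were left out. On simulated data, limma recovered 88%, 84% and 82% of genes changed 1.6-fold with Enalapril, Compound 1 and the combination among 13482 genes. It recovered 0% of those changed 1.3-fold, which lies under the fold threshold, so that threshold alone keeps this share low. With the adjusted p alone, 54%, 48% and 54% of the genes changed 1.3-fold passed. The simulated data had group means removed and animals shuffled, so they lacked the general shift between groups.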

Additional observations from a re-analysis of the deposited data

Results flagged for a closer look

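Nppb, the gene of B-type natriuretic peptide, was under the expression filter and entered no comparison. It stood at 2.09 FPKM in combination animal 4010, whereas the other 43 animals, all Vehicle animals among them, ranged from 0 to 0.260 FPKM. No measured gene of the set had an outlying animal in the Enalapril group of 9, the only group small enough for the outlier check. No interaction of Enalapril and Compound 1, which also holds the dose difference of Compound 1, passed the test for these genes.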

How the results depend on the processing

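No paired analysis was possible because the animals of the groups are different rats with numbers of their own. The count of called members stayed 0 in all 8 comparisons under the alternatives that kept the fold threshold, except that it ran from 0 to 1 for the combination vs Vehicle when single animals were left out. With the adjusted p alone it was 2 for Enalapril, 2 for the combination, 1 for the combination vs Compound 1, 2 for Enalapril vs Compound 1 and 1 for pooled Compound 1. The pathway counts with the adjusted p alone were 15, 24, 15, 6 and 1 of 44 for the same comparisons, where 4071, 6153, 2989, 1822 and 417 of all 13482 tested genes passed. With the fold threshold as well, 1 pathway gene was higher and 1 lower for Enalapril, and 2 and 2 for the combination. The combination vs Compound 1 had 1 and 1, and Enalapril vs Compound 1 had 0 and 2. Under this full rule, a pseudocount of 1 gave counts of 1 for Enalapril, 2 for the combination and 1 for the combination vs Compound 1. The inner medulla covariate gave 1, 2, 1 and 0 for Enalapril, the combination, the combination vs Compound 1 and Enalapril vs Compound 1. Both settings lost Mme for Enalapril, Gucy1b2 and Gucy1a1 for the combination and Gucy1b2 for the combination vs Compound 1, and the covariate also lost Guca2b and Guca2a for Enalapril vs Compound 1. The count was also 1 for Enalapril without Vehicle 1003 and 1004, 1 for the combination vs Compound 1 with sample weights and 1 for Enalapril vs Compound 1 with median-of-ratios scaling. Over fits with 1 animal left out it ran from 1 to 3 for Enalapril, 2 to 6 for the combination, 1 to 2 for the combination vs Compound 1 and 1 to 3 for Enalapril vs Compound 1. The cause of these changes was not tested. Of 719 other values under the alternatives, 628 kept direction and side of the threshold, 47 lost and 6 gained the threshold and 38 changed sign, none of the 38 past the adjusted p. The 6 gains were, with sample weights, Npr1 for the combination (-0.22), Npr1 (-0.23) and Nos3 (-0.23) for the combination vs Compound 1 and Npr1 for Enalapril vs Compound 1 (-0.25), and, with the covariate, Vasp for Compound 1 (-0.30) and for pooled Compound 1 (-0.21). With median-of-ratios scaling the values of opposite sign were Pde2a 0.025, Pde3b 0.074 and Pde1a 0.14 for Enalapril, Npr1 0.044 for Compound 1, Pde2a 0.052, Mrvi1 0.022, Npr3 0.081 and Nos3 0.12 for the combination. With quantile normalization they were Pde2a 0.031, Pde3b 0.14, Pde1a 0.17 and Nos3 0.018 for Enalapril, Pde2a 0.0011, Pde3b 0.0055 and Npr1 0.050 for Compound 1, Pde2a 0.061, Mrvi1 0.099, Pde3b 0.050, Npr3 0.16, Pde5a 0.072 and Nos3 0.18 for the combination. Without mitochondrial transcripts they were Pde3b 0.033 and Pde1a 0.099 for Enalapril, Npr1 0.024 for Compound 1, Npr3 0.0059 and Nos3 0.039 for the combination. With the inner medulla covariate they were Pde3b 0.040 and Pde1a 0.090 for Enalapril, Npr1 -0.024 for pooled Compound 1. With sample weights they were Pde1a 0.055 for Enalapril, Npr1 0.015 for Compound 1, Pde1a -0.017 for the combination vs Compound 1. Without Vehicle 1003 and 1004 they were Npr3 -0.0024 and Pde1a 0.0099 for Enalapril, Npr1 0.014 for Compound 1, Nos3 0.011 for the combination. Without the 6 animals at the end of the table they were Pde1a 0.025 for Enalapril. Without 2103 and 3102 to 3105 they were Npr1 -0.022 for pooled Compound 1. With single animals left out, the sign changed for Npr3 for Enalapril (-0.018 to 0.15), Pde1a for Enalapril (-0.043 to 0.026), Npr1 for Compound 1 (-0.068 to 0.0078), Pde1a for the combination vs Compound 1 (-0.027 to 0.045) and Npr1 for pooled Compound 1 (-0.012 to 0.032). A filter of FPKM above 5 left out the members of low level. FPKM give no read totals, so limits from depth could not be computed for Pde5a and Npr3.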

Other observations

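Nppa, the gene of atrial natriuretic peptide, a ligand of the Npr1 receptor, was highest in the same combination animal 4010, at 39.5 FPKM, and the next highest animal, 4012, stood at 2.81 FPKM. This gene and Nppb were singled out after their values were seen. Over the combination group Nppa had a median of 1.45 FPKM, beside 0.386 in Vehicle, 0.615 with Enalapril and 0.868 with Compound 1, and its limma log2 difference with the combination was 1.62 (95% interval 0.043 to 3.19, adjusted p = 0.0852). That difference includes animal 4010. The lowest Nppa value was 0 FPKM in every group, where the added 0.1 sets the log2 value. In animal 4010 Npr1 was at its group's lowest value of 7.58 FPKM, as was Mrvi1 at 2.30 FPKM.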
